A study of Mus musculus with 28 samples.

Results

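The early growth response (EGR) transcription factors, their NAB corepressors and serum response factor (SRF) were followed in the mouse pituitary as 7 genes, namely Egr1, Egr2, Egr3, Egr4, Nab1, Nab2 and Srf, of the 32594 genes counted. They were listed by name for their place in 1 regulatory circuit, with earlier results of these data known. RNA-seq was performed on whole pituitary glands of 28 C57BL/6J mice, 16 females and 12 males, labelled 8 weeks old, and all groups shared this wild-type background. The home cage controls (4 females, 4 males) had neither paradoxical sleep deprivation (PSD, loss of mainly REM sleep on small platforms over water) nor restraint. The restraint group (4 females, 2 males) spent 20 min in a restrainer and was killed 10 min later. The PSD group (4 females, 3 males) was deprived of sleep for 12 h and killed 18 h after the deprivation ended. The PSD + restraint group (4 females, 3 males) had the same deprivation followed by the same restraint. A whole gland holds the anterior, intermediate and posterior lobes together, so that fewer cells of a type and less RNA per cell cannot be told apart.

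EGR proteins are zinc finger transcription factors that bind GC-rich sites in DNA and are made within minutes of a stimulus, as products of immediate early genes. SRF is present before the stimulus and binds CArG boxes, runs of A and T letters flanked by CC and GG, in promoters of immediate early and cytoskeletal genes, where partners of the ternary complex factor family carry the signal of the ERK kinase cascade. NAB1 and NAB2 bind EGR proteins and recruit the NuRD chromatin complex, and NAB2 is itself an EGR target, which closes a feedback loop. In the pituitary EGR1 is best known for its need in transcription of Lhb, the beta subunit of luteinizing hormone.

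The promoters of 4 members are printed to show which of these elements lie close to the starts of genes whose RNA is compared here. The RefSeq table for GRCm38.p6 gave start windows for 5 of the 7 members and none for Egr1 and Egr3. Each window ran from 250 bases before the start to 50 after it. Srf (chr17:46556163-46556412, minus strand) held 2 CArG boxes, whose first bases lay 82 and 62 bases before the start, 1 EGR site and 1 copy of the short CRE element TGACG. Windows with 2 or more CArG boxes numbered 6 of 32851, or 0.0183%, and windows with at least 1 made up 1.63%. Egr2 (chr10:67537619-67537868, plus strand, 1 of its 5 windows, inside the annotated gene) held 1 CArG box 72 bases before the start and 2 copies of TGACG. Its window at the annotated gene start had no match to any motif. Another Egr2 window held 1 CArG box with other letters and no TGACG, and the rest overlap the printed one. Egr4 (chr6:85513590-85513839, minus strand) held 2 copies of TGACG at 177 and 109 bases and no match to the other motifs. Nab1 (chr1:52500449-52500698, minus strand) held 3 EGR sites and 1 copy of TGACG. The only Nab2 window had no match at all, but it lies inside the annotated gene. The annotated start of Nab2 was not covered by a window and was not searched. The motifs were searched on both strands as the CArG box, the EGR site GCGNGGGCG, found in 5.55% of windows, the full CRE TGACGTCA, found in 1.79%, and TGACG, which lies inside the full CRE and was found in 20.8%. A match is a description of letters and not a measured binding site. The 250 bases before each start are written 5′ to 3′ on the gene's strand, with matches in capitals.
Srf: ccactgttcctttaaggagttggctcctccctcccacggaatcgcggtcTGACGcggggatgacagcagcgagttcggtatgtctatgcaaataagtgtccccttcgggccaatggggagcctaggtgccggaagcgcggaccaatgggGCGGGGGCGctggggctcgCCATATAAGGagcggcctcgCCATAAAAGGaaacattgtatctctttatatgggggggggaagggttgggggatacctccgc
Egr2: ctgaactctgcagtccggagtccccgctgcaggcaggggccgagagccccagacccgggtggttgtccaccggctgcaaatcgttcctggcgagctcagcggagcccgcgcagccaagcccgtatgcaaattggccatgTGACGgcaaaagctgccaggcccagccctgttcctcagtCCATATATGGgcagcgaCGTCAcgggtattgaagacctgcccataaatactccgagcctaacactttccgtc
Egr4: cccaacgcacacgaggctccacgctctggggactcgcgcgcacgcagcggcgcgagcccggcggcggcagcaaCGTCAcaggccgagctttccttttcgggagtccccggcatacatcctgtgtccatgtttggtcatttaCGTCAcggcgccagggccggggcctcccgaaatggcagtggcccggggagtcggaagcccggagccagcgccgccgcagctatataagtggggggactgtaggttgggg
Nab1: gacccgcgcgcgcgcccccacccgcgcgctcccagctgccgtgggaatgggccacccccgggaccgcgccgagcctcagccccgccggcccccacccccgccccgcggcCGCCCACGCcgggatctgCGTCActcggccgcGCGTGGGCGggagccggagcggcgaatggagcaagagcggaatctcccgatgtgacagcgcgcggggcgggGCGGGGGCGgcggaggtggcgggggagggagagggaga

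Total counts per mouse lay between 14024465 and 52948531 (median 33389717), and the lowest count of a member was 4, for Egr4 in control male 1. Levels are given as CPM, the usual library-size scale for counts, with TMM factors over all mice. The defining genes of the anterior lobe were abundant in every mouse, with a summed CPM of at least 60060 for the somatotrope genes Gh and Ghrhr and of at least 31014 for the lactotrope genes Prl and Drd2. Among 4 control males, mouse 1 stood apart with a summed CPM of 3.35 for 5 posterior lobe markers against 47.5 to 63.1 in the other 3. It was also lowest for melanotrope markers (438 against 1464 to 1848) and corticotrope markers (11514 against 49730 to 63673). For forebrain markers (39.7 against 12.7 to 17.1) and for Schwann cell and myelin markers (119.8 against 51.7 to 70.2) it was highest. PSD female 1 had a summed CPM of 143.6 and PSD + restraint female 4 of 69.6 for 5 forebrain markers, against 14.7 to 19.6 in control females. The part of tissue composition in the results was not tested.

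By edgeR's test, restraint raised members of the circuit past the limits in both sexes, Egr3 and Egr4 in each and Egr1 in males. PSD alone raised none past them, while DESeq2 called Egr3 in males and over all mice. Egr1 was higher in restrained females too, without a call, and the sex difference in its response was not called. A gene counted as called where edgeR's quasi-likelihood test gave it a p, adjusted by Benjamini and Hochberg's method, no greater than 0.05 and its log2 fold change reached 0.322 either way. The test sets the group difference against a spread between mice, estimated over all groups of a fit and moderated over genes. In males the restraint group adds only 2 mice to it. After restraint 2 of 7 members were called in females, Egr3 and Egr4, where 0.543% of the 18059 genes tested were called. In males 3 of 7 were called, Egr1, Egr3 and Egr4, where 0.296% of 18271 genes were called. After PSD + restraint 5 of 7 were called in females (Egr2, Egr3, Egr4, Nab2 and Srf) beside 2.2% of all genes, and 5 of 7 in males (Egr1, Egr3, Egr4, Nab2 and Srf) beside 2.56%. Every call was an increase. Without restraint female 3 the female count after restraint was 5, with Egr2, Nab2 and Srf added, and DESeq2 gave the same 5. With all mice in 1 model and sex as a term, 4 members were called after restraint (Egr1, Egr3, Egr4 and Nab2) beside 1.14% of 18936 genes, and 6 after PSD + restraint, all but Nab1, beside 5.46%. The 3 treatments share the control mice, so these counts are not independent of each other. Because the members were chosen with earlier results known, the shares beside all genes are a description and not a test.

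**Figure D1:**
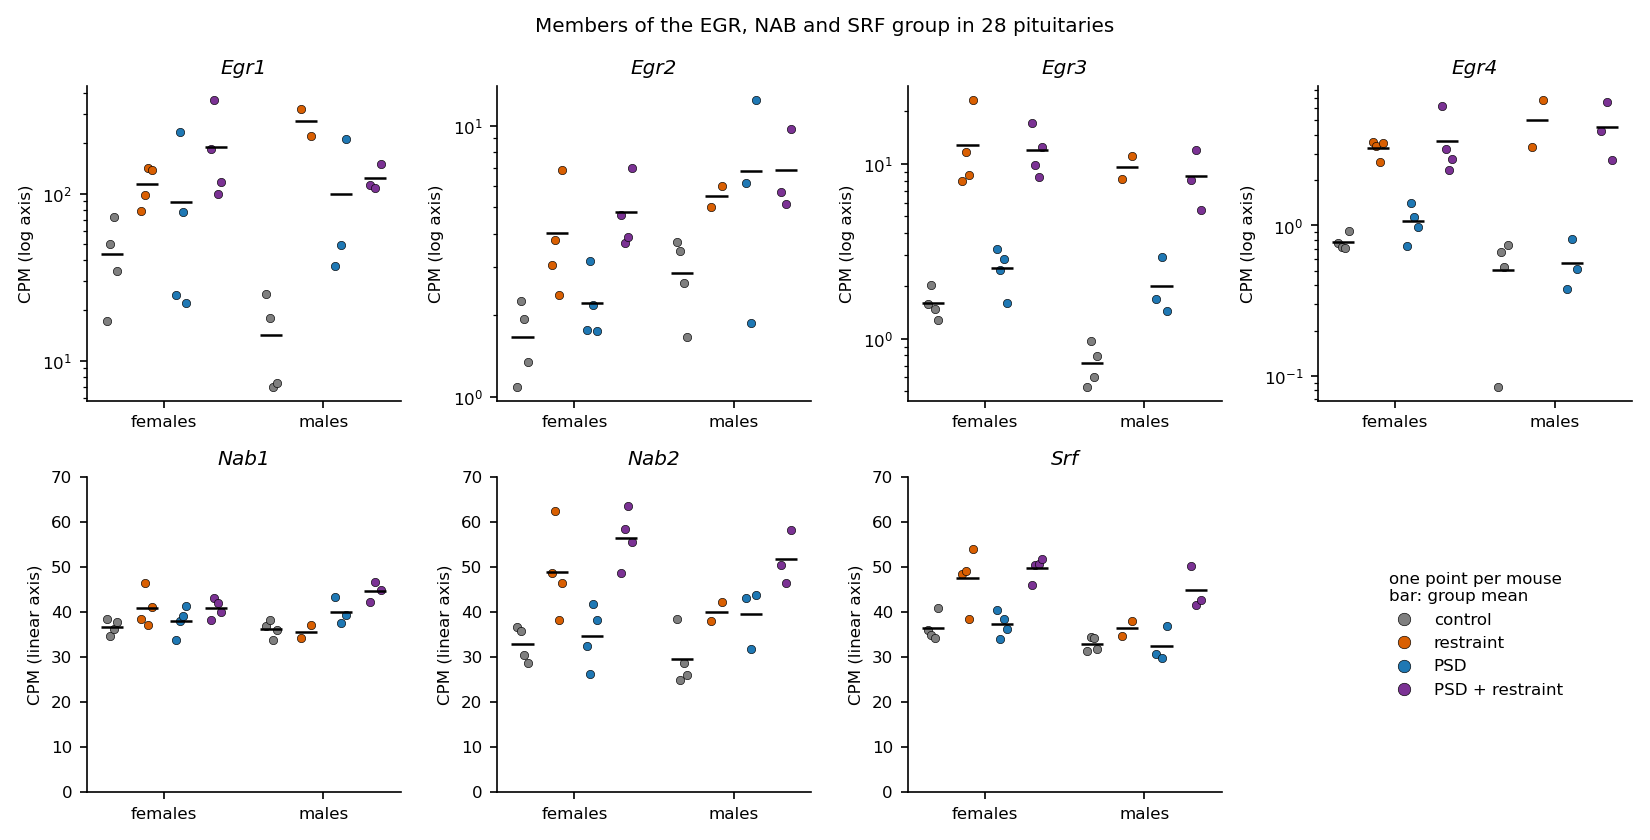
CPM of each member in each of the 28 mice (points) with the group mean (bar), by sex and treatment. The y axis is logarithmic for the EGR genes and linear from 0 for Nab1, Nab2 and Srf. Egr3 and Egr4 of all restrained mice lie above all unrestrained mice of the same sex, while Nab1 stays between 33.8 and 46.8 CPM in all mice.

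Srf lies on chromosome 17 (GRCm38, 46548329 to 46556175, minus strand) and its gene span is shared with the long noncoding RNA gene Gm26904 on the other strand. Because the strand setting of the counting is not given in the sources used here, reads of both cannot be told apart in the counts. In females Srf was at 36.2, 34.9, 34.4 and 41.0 CPM in the controls and at 48.5, 49.3, 38.6 and 54.2 CPM after restraint. Restraint female 3 fell inside the control range and the other 3 lay above it. The log2 fold change was 0.39 (SE 0.09) with an adjusted p of 0.0667, and leaving out restraint female 3 gave 0.47 with an adjusted p of 0.00448. PSD females were at 40.6, 34.1, 38.5 and 36.3 CPM and PSD + restraint females at 46.1, 50.5, 50.8 and 51.8 CPM. All 4 PSD + restraint females lay above all 8 unrestrained females, and the log2 fold change against controls was 0.45 (SE 0.09, adjusted p = 0.0142).

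In males Srf was at 31.4, 34.6, 34.4 and 31.9 CPM in the controls and at 34.8 and 38.1 CPM in the 2 restrained mice. These values nearly touched, and the log2 fold change of 0.15 (SE 0.10) had an adjusted p of 0.9998. PSD males were at 30.8, 29.9 and 37.1 CPM and PSD + restraint males at 50.4, 41.7 and 42.8 CPM. Only the PSD + restraint males were clear of the other 3 male groups. Their log2 fold change against controls was 0.45 (SE 0.09, adjusted p = 0.0187). It lost the call with the neurointermediate lobe score as a covariate (0.40, adjusted p = 0.0537) and without PSD + restraint male 1 (0.36, adjusted p = 0.102) or control male 4 (0.43, adjusted p = 0.0538).

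Egr3 had the largest log2 fold change of the members in females, after either kind of restraint. It encodes an EGR factor studied in neurons and in muscle spindles, and the gene lies on chromosome 14 (70077203 to 70082614, plus strand). In females Egr3 was at 1.59, 2.04, 1.48 and 1.28 CPM in the controls and at 8.03, 11.7, 8.64 and 23.1 CPM after restraint. PSD females were at 3.27, 2.46, 2.84 and 1.60 CPM and PSD + restraint females at 17.2, 9.81, 8.44 and 12.5 CPM. The lowest restrained female had 2.45 times the CPM of the highest unrestrained one. Against controls the log2 fold change was 3.03 (SE 0.35, adjusted p = 3.21e-04) after restraint and 2.92 (SE 0.35, adjusted p = 2.65e-04) after PSD + restraint.

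In males Egr3 was at 0.531, 0.974, 0.604 and 0.792 CPM in the controls and at 8.16 and 11.1 CPM after restraint. PSD males were at 1.68, 2.91 and 1.44 CPM and PSD + restraint males at 8.06, 12.0 and 5.46 CPM. Both sets of restrained males lay above all 7 unrestrained males, the lowest at 1.87 times the highest of those. The PSD males in turn were all above the controls, without a call (log2 fold change 1.5, SE 0.33, adjusted p = 0.181, unadjusted p = 5.56e-04). Its log2 fold change in males was 3.73 (SE 0.33, adjusted p = 4.88e-04) after restraint and 3.57 (SE 0.32, adjusted p = 1.44e-04) after PSD + restraint.

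Egr4, an EGR gene on chromosome 6 (85511121 to 85513589, minus strand) that lacks the NAB-binding domain of its relatives, had the lowest counts of the circuit. In females Egr4 was at 0.762, 0.724, 0.712 and 0.913 CPM in the controls and at 3.59, 3.40, 2.63 and 3.53 CPM after restraint. PSD females were at 0.727, 1.42, 1.14 and 0.974 CPM and PSD + restraint females at 6.19, 3.24, 2.35 and 2.78 CPM. The 8 restrained and 8 unrestrained females did not overlap. Against controls its log2 fold change was 2.08 (SE 0.27, adjusted p = 0.00129) after restraint and 2.19 (SE 0.28, adjusted p = 4.50e-04) after PSD + restraint.

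In males Egr4 was at 0.0849, 0.668, 0.533 and 0.744 CPM in the controls and at 3.30 and 6.79 CPM after restraint. PSD males were at 0.380, 0.807 and 0.513 CPM and PSD + restraint males at 4.23, 6.59 and 2.73 CPM. Again restrained and unrestrained males were apart, the lowest of the first at 3.38 times the highest of the second, and control male 1, whose posterior lobe markers were low, was also lowest for Egr4. Its log2 fold change was 3.35 (SE 0.51, adjusted p = 0.0135) after restraint and 3.20 (SE 0.49, adjusted p = 0.00473) after PSD + restraint. Without control male 3 the first had an adjusted p of 0.0547, and without restraint male 3 it became 2.74 with an adjusted p of 0.276, and the lone restrained male was then assumed to vary like the other groups.

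Every restrained mouse lay above every unrestrained mouse of its sex for Egr3 and Egr4 and for no other member, in females and in males alike. Such separation was found for 0.736% of genes in females, 0.733% in males and 0.28% in both sexes. No such share was counted for the smaller splits of groups named for single members, which separate more easily by chance. Within PSD mice, where restraint is compared with no restraint after the same deprivation, 4 of 7 members were called in females (Egr3, Egr4, Nab2 and Srf) beside 0.941% of genes. In males 2 of 7 were called (Egr3 and Egr4) beside 0.285%, and over all mice 4 of 7 (Egr3, Egr4, Nab2 and Srf) beside 2.01%. The log2 fold change of Egr3 for restraint within PSD was 2.25 (SE 0.34, adjusted p = 0.00252) in females and 2.06 (SE 0.31, adjusted p = 0.0160) in males. That of Egr4 was 1.75 (SE 0.28, adjusted p = 0.00376) in females and 2.95 (SE 0.52, adjusted p = 0.0357) in males. The male count was 0 without PSD male 1, PSD + restraint male 1 or PSD + restraint male 2, and 1 without PSD male 2 or 3 or control male 2, 3 or 4. Without PSD male 3 the 1 member was Srf (0.56, adjusted p = 0.0342), while Egr3 (adjusted p = 0.0631) and Egr4 (adjusted p = 0.104) both lost the call. In females Srf lost this call without control female 1, restraint female 1, PSD female 2, 3 or 4 or any PSD + restraint female (adjusted p of 0.0508 to 0.118), and Nab2 without PSD female 1, whose forebrain markers were high, PSD female 2 or PSD + restraint female 2, 3 or 4 (adjusted p of 0.0624 to 0.0961).

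**Figure D2:**
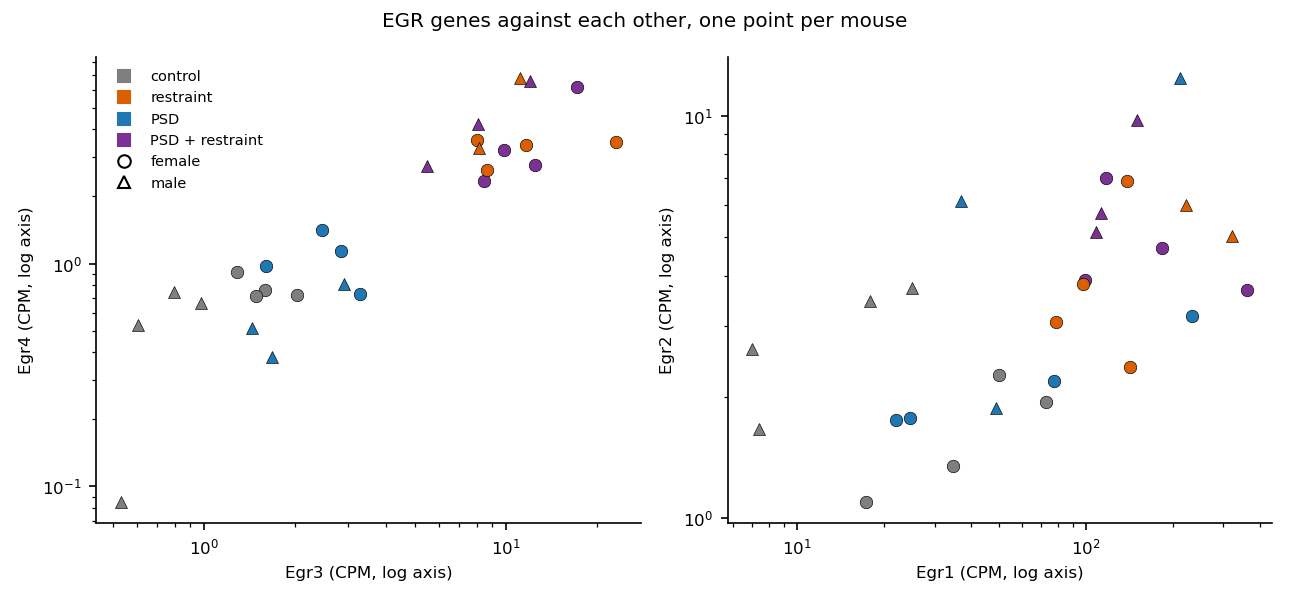
CPM of Egr4 against Egr3 (left) and of Egr2 against Egr1 (right), 1 point per mouse on logarithmic axes, coloured by treatment with circles for females and triangles for males. The restrained mice stand apart at the upper right for Egr3 and Egr4, whereas the groups overlap for Egr1 and Egr2.

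Egr1, a classical immediate early gene on chromosome 18 (34859823 to 34864984, plus strand), was the most abundant EGR gene in every group. In females Egr1 was at 17.4, 49.9, 72.9 and 34.5 CPM in the controls and at 78.8, 98.0, 142 and 139 CPM after restraint. PSD females were at 24.6, 233, 77.9 and 22.0 CPM and PSD + restraint females at 184, 363, 99.7 and 117 CPM. Both restrained groups lay above the controls, but PSD female 2, which was not restrained, exceeded all females except PSD + restraint female 2. No female contrast was called, with log2 fold changes of 1.40 (SE 0.64, adjusted p = 0.493) after restraint and 2.14 (SE 0.65, adjusted p = 0.0842) after PSD + restraint. Without PSD female 2, which shares in the estimate of the spread, the adjusted p of the latter became 0.0376. The same mouse set the log2 fold change of PSD against controls, which was 1.03 with it and -0.07 without it.

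In males Egr1 was at 25.0, 17.9, 6.99 and 7.37 CPM in the controls and at 321 and 223 CPM after restraint. PSD males were at 36.9, 49.0 and 212 CPM and PSD + restraint males at 113, 109 and 150 CPM. All 8 treated males exceeded all 4 controls, and PSD male 3 exceeded the 3 PSD + restraint males. Male Egr1 had a log2 fold change of 4.23 (SE 0.61, adjusted p = 0.00900) after restraint and 3.10 (SE 0.57, adjusted p = 0.0138) after PSD + restraint. With edgeR's robust dispersion these calls were lost, with adjusted p of 0.139 and 0.062, and the first was lost also without restraint male 2 (3.95, adjusted p = 0.0877). DESeq2 with shrunken fold changes reduced the second to 0.23, under the fold limit, at an adjusted p of 5.45e-04. After PSD alone the male log2 fold change was 2.78 (SE 0.56) with an unadjusted p of 2.67e-04 and an adjusted p of 0.151, and without PSD male 3 it was 1.58.

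Egr2, a regulator of myelinating Schwann cells on chromosome 10 (67535475 to 67542188, plus strand), was called after PSD + restraint in females. In females Egr2 was at 1.09, 2.26, 1.94 and 1.34 CPM in the controls and at 3.06, 3.80, 2.37 and 6.88 CPM after restraint. PSD females were at 1.77, 3.17, 2.19 and 1.75 CPM and PSD + restraint females at 4.70, 3.69, 3.90 and 6.998 CPM. The PSD + restraint females lay above all unrestrained females and the restrained ones did not. In females its log2 fold change was 1.3 (SE 0.33, adjusted p = 0.105) after restraint and 1.56 (SE 0.34, adjusted p = 0.0210) after PSD + restraint. Without PSD + restraint female 4, whose forebrain markers were raised, the latter was 1.31 with an adjusted p of 0.0638, and it lost its call too without PSD + restraint female 1 (1.56, adjusted p = 0.0607) or control female 4 (1.47, adjusted p = 0.0797).

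In males Egr2 was at 3.71, 3.45, 2.63 and 1.66 CPM in the controls and at 5.02 and 5.98 CPM after restraint. PSD males were at 6.14, 1.88 and 12.4 CPM and PSD + restraint males at 5.71, 5.14 and 9.73 CPM. PSD male 2 fell inside the control range and PSD male 3 exceeded all other males. Male log2 fold changes were 0.94 (SE 0.53, adjusted p = 0.9998) after restraint, 1.24 (SE 0.47, adjusted p = 0.493) after PSD and 1.24 (SE 0.48, adjusted p = 0.203) after PSD + restraint, none of them called, and the value after PSD was 0.46 without PSD male 3. In the model of all mice Egr2 had a log2 fold change of 1.2 (SE 0.32, adjusted p = 0.0574) after restraint and was called after PSD + restraint, at 1.43 (SE 0.31, adjusted p = 0.00365). The change after restraint over all mice was called by DESeq2 (adjusted p = 0.0108), with the neurointermediate lobe score (adjusted p = 0.0350), and in edgeR without restraint female 3, PSD + restraint female 4, PSD male 2 or PSD male 3 (adjusted p of 0.0199 to 0.0472).

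Nab2 had positive log2 fold changes after restraint and after PSD + restraint in both sexes, smaller than those of Egr3 and Egr4. It lies on chromosome 10 (127660918 to 127668568, minus strand) and overlaps Stat6 by 40 bases and Nemp1 by 1668 bases, both on the other strand. In females Nab2 was at 36.8, 35.96, 30.6 and 28.7 CPM in the controls and at 48.8, 62.5, 38.3 and 46.6 CPM after restraint. PSD females were at 32.6, 26.4, 41.9 and 38.2 CPM and PSD + restraint females at 48.7, 58.5, 63.8 and 55.6 CPM. Every restrained female exceeded every control, and every PSD + restraint female exceeded every unrestrained female. Its female log2 fold change was 0.58 (SE 0.15, adjusted p = 0.0964) after restraint, 0.09 (SE 0.15, adjusted p = 0.790) after PSD and 0.79 (SE 0.15, adjusted p = 0.00945) after PSD + restraint.

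In males Nab2 was at 38.5, 25.0, 28.8 and 26.1 CPM in the controls and at 38.0 and 42.4 CPM after restraint. PSD males were at 43.2, 31.8 and 43.9 CPM and PSD + restraint males at 50.6, 46.7 and 58.3 CPM. Control male 1 was level with the lower restrained male, and the PSD + restraint males were above all other males. The log2 fold change was 0.44 (SE 0.17, adjusted p = 0.791) after restraint, 0.42 (SE 0.15, adjusted p = 0.442) after PSD and 0.81 (SE 0.15, adjusted p = 0.0143) after PSD + restraint. The last was at an adjusted p of 0.0539 without PSD + restraint male 1. Over all mice Nab2 changed by 0.55 (SE 0.12, adjusted p = 0.0115) after restraint, and without restraint female 2 by 0.45 (adjusted p = 0.0544).

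Nab1, on chromosome 1 (52457294 to 52500679, minus strand), was not called in any contrast with all mice included, and its levels over all 28 mice differed by at most 1.38 times. In females it was at 38.6, 34.7, 36.4 and 37.8 CPM in the controls and at 38.3, 43.1, 42.1 and 40.1 CPM after PSD + restraint. In males it was at 37.0, 38.4, 33.8 and 36 CPM in the controls and at 42.2, 46.8 and 45.1 CPM after PSD + restraint. The PSD + restraint males were clear of the controls, with a log2 fold change of 0.30 (SE 0.07) and an adjusted p of 0.0374, which is under the fold limit. Without control male 2 it was called, at 0.33 (adjusted p = 0.0453). In the model of all mice Nab1 changed by 0.22 (SE 0.06, adjusted p = 0.0107) after PSD + restraint, also under the limit. The restraint groups had 34.2 to 46.5 CPM and the PSD groups 33.8 to 43.5 CPM.

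The balance of the corepressors was described as the log2 ratio of Nab2 to Nab1 per kilobase, a comparison chosen after the values were seen. In females this ratio was 0.31 ± 0.20 (SD, n = 4) in controls, 0.73 ± 0.17 (SD, n = 4) after restraint, 0.33 ± 0.27 (SD, n = 4) after PSD and 0.94 ± 0.10 (SD, n = 4) after PSD + restraint. The difference between PSD + restraint and controls was 0.63, with a two-sided exact permutation p of 0.0286, the smallest that 4 against 4 mice allow, and an adjusted p of 0.229 over the 16 ratio comparisons made. In males the ratio was 0.16 ± 0.29 (SD, n = 4) in controls and 0.69 ± 0.19 (SD, n = 3) after PSD + restraint (exact permutation p = 0.114, adjusted p = 0.356).

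**Figure D3:**
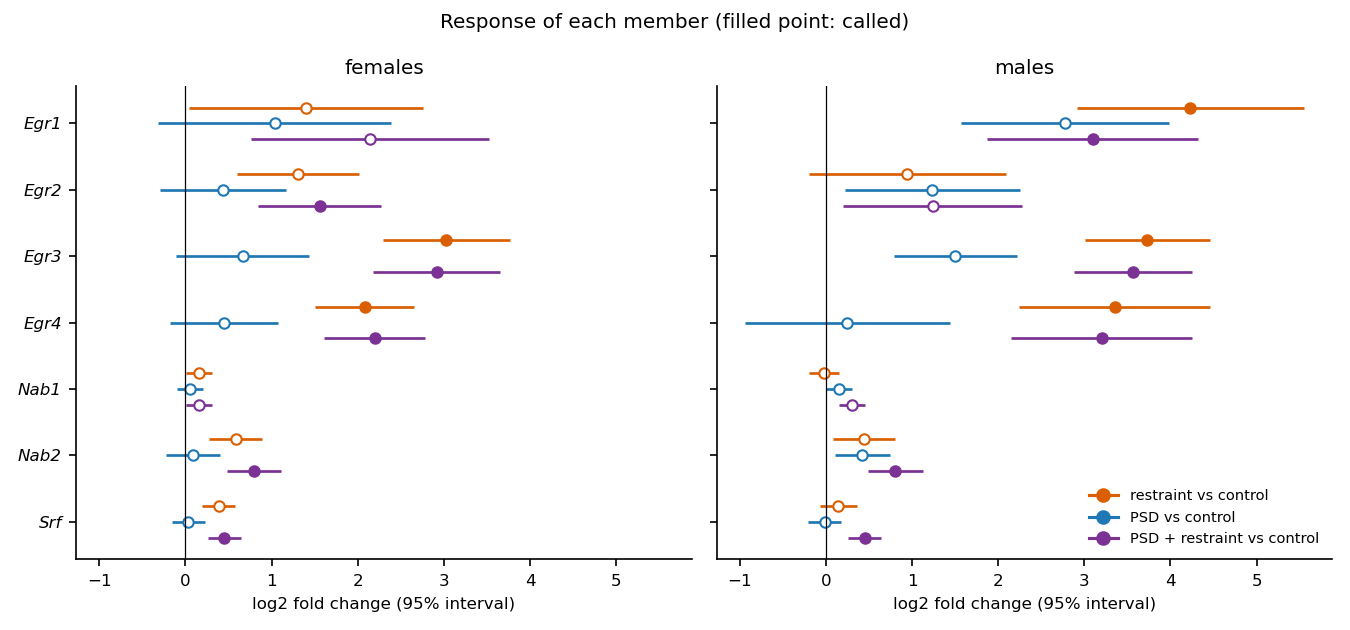
Log2 fold change against home cage controls with its 95% interval from edgeR, for each member after restraint, PSD and PSD + restraint, females left and males right. Filled points were called. The EGR intervals are wider than those of Nab1, Nab2 and Srf, and no PSD point is filled.

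PSD without restraint gave 0 of 7 called members in females beside 0.0277% of genes, 0 of 7 in males beside 0.00547%, and 0 of 7 over all mice beside 0.671%, in edgeR's test. Respectively 0, 5 and 4 members had an unadjusted p under 0.05, and DESeq2 called 0, 1 and 1, the gene being Egr3 each time. Of all genes tested, 3567 of 18059 in females, 1617 of 18271 in males and 3328 of 18936 over all mice had such a p. Egr3 over all mice had a log2 fold change of 1.03 (SE 0.26, adjusted p = 0.0585) and Egr1 of 1.75 (SE 0.52, adjusted p = 0.0968). Leaving out PSD female 4 brought both under the limit (adjusted p of 0.0289 for Egr3 and 0.0483 for Egr1), and leaving out control female 1, restraint female 3 or restraint female 4 brought Egr3 under it. Srf had a log2 fold change of 0.03 (95% interval -0.16 to 0.22) in females and -0.01 (95% interval -0.21 to 0.18) in males.

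Restrained mice with and without PSD were compared to ask whether earlier sleep loss changed the level reached after restraint. None of 7 members was called in females, males or all mice, beside 0.0332%, 0.00547% and 0.0951% of genes, and 0, 2 and 2 members had an unadjusted p under 0.05 while DESeq2 called 0. Of all genes tested, 2555 of 18059, 1925 of 18271 and 2560 of 18936 had such a p. Egr3 differed by -0.11 (95% interval -0.76 to 0.54) in females and -0.17 (95% interval -0.87 to 0.53) in males on the log2 scale. Egr1 differed by 0.74 (95% interval -0.58 to 2.07) in females and -1.14 (95% interval -2.48 to 0.21) in males. In males Nab1 (0.32, SE 0.08, unadjusted p = 0.00210, adjusted p = 0.267) and Srf (0.30, SE 0.11, unadjusted p = 0.0137, adjusted p = 0.361) were the 2 members with a low unadjusted p, both higher after PSD. The Egr3 intervals reach past the fold limit on both sides, so that a change of that size in either direction remains within them.

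The interaction asks whether the change with restraint differs between PSD and undeprived mice. No member was called in females, males or all mice, where 0.0%, 0.0% and 0.0% of genes were called by edgeR and no member by DESeq2, and 0, 3 and 2 members had an unadjusted p under 0.05. Of all genes tested, 766 of 18059, 702 of 18271 and 743 of 18936 had such a p. In males the 3 members were Egr1 at -3.91 (SE 0.84, unadjusted p = 4.37e-04), Egr3 at -1.67 (SE 0.46, unadjusted p = 0.00316) and Srf at 0.32 (SE 0.14, unadjusted p = 0.0390), all with an adjusted p of 0.99998. Without PSD male 3 the Egr1 value was -2.71. In females Egr1 was at -0.29 (SE 0.89) and Egr3 at -0.77 (SE 0.48).

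Both sexes were compared in a model with a mean for each sex and treatment. The difference between female and male responses was called for 0 of 7 members after restraint, PSD or PSD + restraint, where 0.0%, 0.0% and 0.0% of genes were called by edgeR. An unadjusted p under 0.05 was found for 2 members after restraint and for 0 after each other treatment, and DESeq2 called 0. The response of Egr1 to restraint was lower in females by 2.84 on the log2 scale (female minus male -2.84, SE 0.98, unadjusted p = 0.00768, adjusted p = 0.9998), and that of Egr4 by 1.27 (female minus male -1.27, SE 0.59, unadjusted p = 0.0427). Among controls 0 of 7 members differed by sex in edgeR's test, beside 10.7% of genes, with 2 at an unadjusted p under 0.05. Of all 18936 genes tested, 5262 had such a p, a share close to that of the members. Control females had 1.60 ± 0.32 (SD, n = 4) CPM of Egr3 and control males 0.725 ± 0.199 (SD, n = 4) CPM, a log2 difference of 1.12 (SE 0.39, adjusted p = 0.0516) that did not overlap between mice. DESeq2 called this difference (adjusted p = 0.0114), and edgeR did too when any 1 of 10 mice was left out (adjusted p of 0.0194 to 0.0491). Egr1 was at 43.7 ± 23.6 (SD, n = 4) CPM in control females and 14.3 ± 8.76 (SD, n = 4) CPM in control males (log2 difference 1.59, SE 0.66, adjusted p = 0.108).

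Levels between genes were compared as CPM per kilobase of exon. In control females Srf had 12.7 ± 1.04 (SD, n = 4), Nab2 11.2 ± 1.36 (SD, n = 4), Egr1 9.74 ± 5.26 (SD, n = 4) and Nab1 8.99 ± 0.42 (SD, n = 4) CPM per kilobase. Nab2, Egr1 and Nab1 did not differ beyond the SD of Egr1. Far below came Egr2 at 0.488 ± 0.158 (SD, n = 4), Egr3 at 0.362 ± 0.0723 (SD, n = 4) and Egr4 at 0.362 ± 0.0430 (SD, n = 4), and these neighbours did not differ beyond the SD of Egr2. In control males the order ran Srf (11.4 ± 0.573), Nab2 (10.1 ± 2.08), Nab1 (8.85 ± 0.466), Egr1 (3.20 ± 1.95), Egr2 (0.842 ± 0.273), Egr4 (0.236 ± 0.137) and Egr3 (0.165 ± 0.0452), each with SD and n = 4. There Srf, Nab2 and Nab1 did not differ from their neighbours beyond the SD of Nab2, nor did Egr4 from Egr3 beyond the SD of Egr4. After restraint Egr1 came first in both sexes on this exon scale, at 25.5 ± 6.94 (SD, n = 4) in females and 60.7 ± 15.5 (SD, n = 2) in males, and it was at 42.6 ± 26.8 (SD, n = 4) and 27.7 ± 5.11 (SD, n = 3) after PSD + restraint. In PSD mice its mean was set by 1 mouse per sex, with 5.49, 51.9, 17.4 and 4.92 CPM per kilobase in females and 8.23, 10.9 and 47.3 in males. With mean transcript length in place of exon length the control female order became Srf (34.7), Nab2 (23.2), Nab1 (18.7) and Egr1 (11.6), and in restrained females Egr1 (30.4) came after Srf (45.1) and Nab2 (34.6), so the rank of Egr1 depends on the length used. Egr1 made up 68.3 ± 10.9% (SD, n = 4) of the summed EGR level per kilobase in control males and 81.7% to 90.3% on average in the other 7 groups.

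Over the 28 mice the log2 CPM of every pair of members had a positive Pearson's r, of 0.34 at the lowest, which is a description of mice that share groups and a gland. Pearson's r was 0.91 for Egr3 and Egr4, 0.77 for Egr3 and Srf, 0.74 for Egr1 and Egr3, 0.74 for Nab2 and Srf and 0.69 for Nab1 and Nab2, with a median of 0.57 over all pairs. After the mean of each of the 8 groups was taken out the median was near 0, at -0.0019. Egr3 and Egr4 kept an r of 0.51, Egr1 and Egr2 of 0.53 (0.60 before) and Nab1 and Nab2 of 0.47. Egr1 and Egr3 fell to -0.02, and Egr4 and Nab2 changed from 0.56 to -0.55. Control male 1 was the lowest of its group for Egr4 (0.0849 CPM) and the highest for Nab2 (38.5 CPM). PSD male 3 and PSD female 2 were the highest of their groups for both Egr1 and Egr2. The part of single mice in the r of a pair was not tested.

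**Figure D4:**
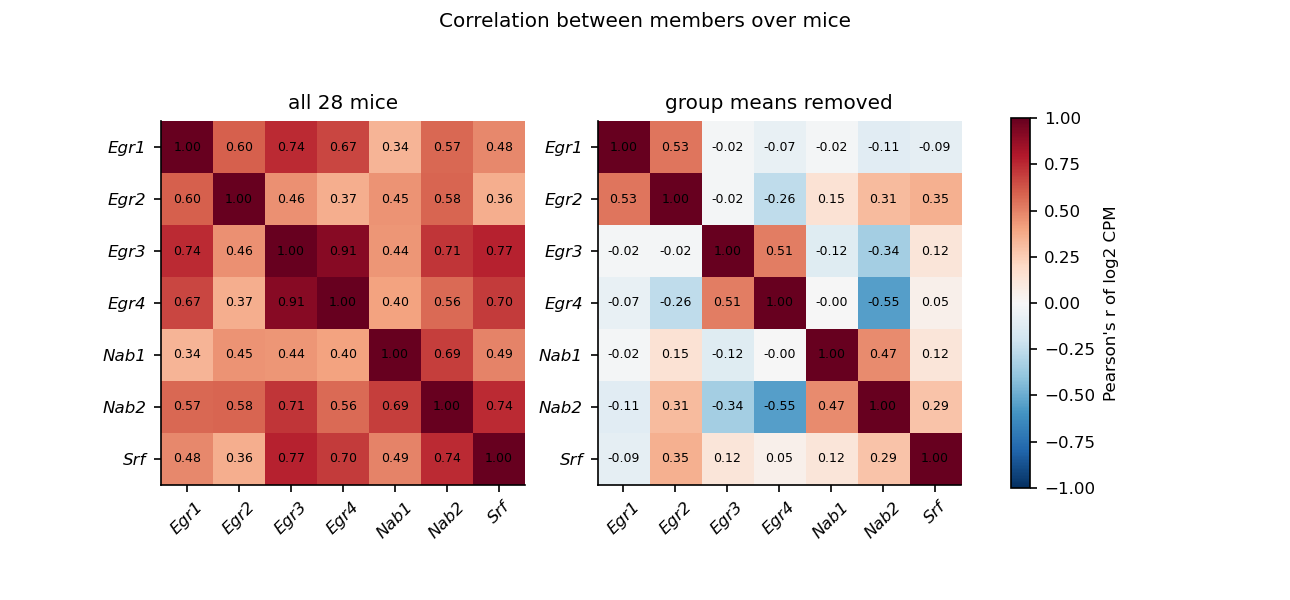
Pearson's r between the log2 CPM of each pair of members over 28 mice, before (left) and after (right) the mean of each sex and treatment group was taken out. Red is positive and blue negative on a scale from -1 to 1. After group means are removed, pairs such as Egr1 with Egr2 (0.53) and Egr3 with Egr4 (0.51) stay red, and Egr4 with Nab2 (-0.55) is blue.

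The genes most like each member were ranked by Pearson's r of log2 CPM over the 28 mice with the mean of each sex taken out, among 17851 genes tested in both sexes, whose median r lay near 0. Egr1 was nearest to Btg2 (0.894), an antiproliferative gene, and Junb (0.865), an AP-1 subunit. Egr3 was nearest to Atf3 (0.933), a stress-induced transcription factor, and B3galt2 (0.927), a galactosyltransferase. Egr4 was nearest to Dusp5 (0.897), a nuclear ERK phosphatase, and Gprc5a (0.890), an orphan receptor. Egr2 was nearest to AK006051 (0.853) and Pard6a (0.826), a cell polarity gene, and Nab1 to Fam131a (0.769) and AK080469 (0.761). Nab2 and Srf shared their nearest gene, Erf, an ETS repressor under ERK control, at 0.923 and 0.855, followed by Crem (0.899), a cAMP-responsive factor, for Nab2 and Nedd9 (0.852), an adhesion scaffold, for Srf.

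The genes around the circuit were taken as lists, also chosen with earlier results of these data known, and are described by counts. After restraint, PSD and PSD + restraint, 0.543%, 0.0277% and 2.2% of all genes were called in females. In males the shares were 0.296%, 0.00547% and 2.56%. An unadjusted p under 0.05 was found for 1765, 3567 and 3649 of 18059 genes in females. In males it was found for 927, 1617 and 3181 of 18271. Among 6 SRF cofactors (Elk1, Elk3, Elk4, Mkl1, Mkl2 and Myocd), of which 5 could be tested, and 13 genes of the ERK cascade, 0 were called by edgeR or DESeq2 after restraint, PSD or PSD + restraint in either sex. At most 2 cofactors and 4 ERK cascade genes had an unadjusted p under 0.05 in any of these contrasts. Of 11 immediate early targets of SRF outside the circuit, 3 rose after restraint and 5 after PSD + restraint in females, and 6 and 9 in males, with 0 after PSD in either sex by either tool, where 0 in females and 8 in males had an unadjusted p under 0.05. Their median log2 fold change after PSD + restraint was 1.21 in females and 1.82 in males, where that of all genes was 0.01 and -0.01. Nr4a1, an orphan nuclear receptor that acts on Pomc, had a log2 fold change of 3.99 (SE 0.40, adjusted p = 8.15e-05) in females and 5.07 (SE 0.53, adjusted p = 5.11e-04) in males after PSD + restraint. Fosb, an AP-1 subunit, had 4.5 (SE 0.51, adjusted p = 1.80e-04) and 4.34 (SE 0.49, adjusted p = 8.12e-04). The activity-dependent factor Npas4 had 1.94 and 2.37, and the survival gene Mcl1 0.37 and 0.42, all called.

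Of 12 cytoskeletal targets of SRF, of which 11 were tested in each sex, 3 rose after PSD + restraint in females (Acta2, Tagln and Myl9) and 2 in males (Acta2 and Tagln), and 0 after restraint or PSD alone by sex. In those contrasts up to 4 genes had an unadjusted p under 0.05, and DESeq2 called 1 gene after PSD in males. Acta2, smooth muscle actin, changed by 0.99 (SE 0.21, adjusted p = 0.0195) in females and 0.92 (SE 0.21, adjusted p = 0.0351) in males, and Tagln, an actin-binding protein of smooth muscle, by 0.84 (SE 0.17, adjusted p = 0.0163) and 0.92 (SE 0.14, adjusted p = 0.00567). The 4 smooth muscle and pericyte markers, one of which is Acta2, summed to 62.6 to 76.5 CPM in PSD + restraint females against 57.1 to 66.8 CPM in controls, and to 67.2 to 73.5 against 67.8 to 78.4 CPM in males. Of 12 EGR target genes, Arc, a synaptic regulator, and Bdnf, a neurotrophin, rose after PSD + restraint in both sexes. Arc, which also stands in the SRF list, changed by 1.91 (SE 0.35, adjusted p = 0.00949) in females and 1.66 (SE 0.22, adjusted p = 0.00221) in males, and Bdnf by 1.05 (SE 0.26, adjusted p = 0.0452) and 1.06 (SE 0.17, adjusted p = 0.00686). The median of the EGR target list was 0.18 in females and 0.16 in males. Of 13 NuRD subunits and 6 other factors that bind GC-rich sites (Wt1, Sp1, Sp3, Sp4, Zbtb7a and Patz1), of which 5 could be tested, 0 were called after any of the 3 treatments in either sex by either tool, with at most 3 and 4 genes at an unadjusted p under 0.05.

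**Figure D5:**
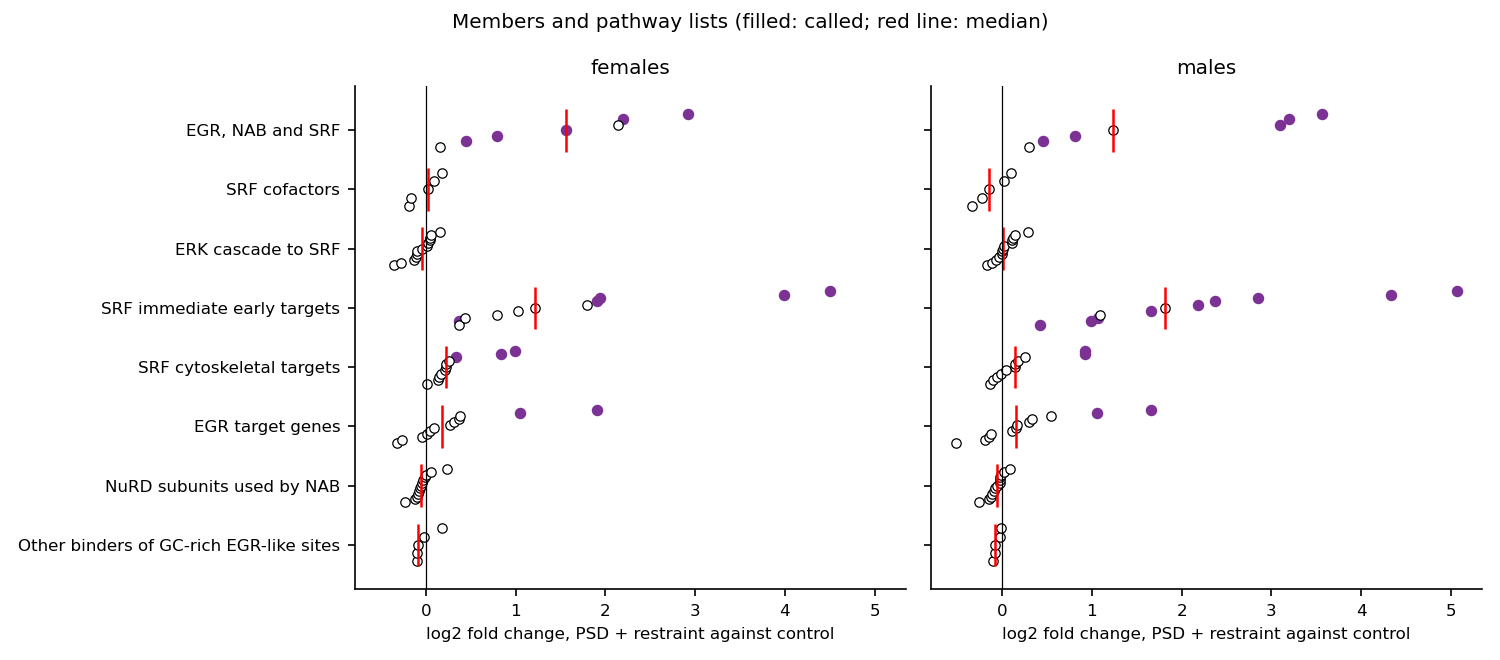
Log2 fold change of PSD + restraint against controls for each member and each tested gene of the pathway lists, females left and males right, with called genes filled and a red line at each list's median. The members and the SRF immediate early targets extend to the right, while SRF cofactors, ERK cascade and NuRD genes gather around 0.

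Among markers of other pituitary cells, some were higher after PSD + restraint too and some were lower. Over all mice the melanotrope markers Pcsk2 (log2 fold change 0.996, SE 0.25, adjusted p = 0.00926) and Oacyl (0.86, SE 0.24, adjusted p = 0.0227) and the hormone gene Pomc (0.99, SE 0.27, adjusted p = 0.0157) were called in the contrast with 6 called members. No melanotrope, corticotrope or posterior lobe marker was called against controls by sex. The summed CPM of 4 genes listed as corticotrope markers, Pomc among them, was 70646 to 101600 in PSD + restraint females against 36676 to 68297 in controls. In males it was 66340 to 126323 against 11514 to 63673, the lowest being control male 1. After PSD alone it was 70383 to 164633 in females and 65978.5 to 101783 in males. Pomc is expressed in melanotropes as well, so this sum does not tell corticotropes from melanotropes. By contrast the lactotrope genes summed to 134083 to 155812 in PSD + restraint females against 159245 to 231837 in controls. In males they summed to 31014 to 35875 against 34891 to 41718. After PSD alone the lactotrope genes summed to 96962 to 170403 in females and 37984 to 41304 in males. The part of the cell type markers in the members' results was not tested. The summed CPM of 4 melanotrope markers was 1315 to 1982 in control females, 1856 to 4436 after PSD and 1884 to 3036 after PSD + restraint. In males it was 438 to 1848 in controls, 1833 to 2575 after PSD and 1886 to 3461 after PSD + restraint. The value of 438 was that of control male 1, and the next lowest control male had 1464. No marker of this list was at 0 in any group. In the restraint groups, where Egr3 and Egr4 rose, the melanotrope sum was 1247 to 2769 in females and 1348 to 2049 in males. With a neurointermediate lobe score as a covariate the female count after PSD + restraint was 2, Egr3 and Egr4, while the log2 fold changes of the others were 1.68 for Egr2 (adjusted p = 0.0858), 0.73 for Nab2 (adjusted p = 0.0890) and 0.46 for Srf (adjusted p = 0.0877). The male count with this score was 4, without Srf.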

How the data were processed

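Whole pituitary RNA of 28 mice was sequenced as paired-end reads. The authors aligned the reads to mm10 with MapSplice, assigned them to UCSC gene models in HTSeq 0.9.1 (mode intersection-nonempty) and deposited the raw count per gene and mouse. The strand setting is not given in the sources used here. They also deposited the same counts divided by a DESeq2 1.16.1 size factor per mouse, a normalized signal that served only as a check (relative deviation from 1 factor per mouse at most 7.6e-08 for genes with 10 or more counts). The versions follow the submitters' processing notes.

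Groups were taken from the sample labels. Counts were fitted in R 4.3.3 with edgeR 4.0.16 (TMM, filterByExpr, quasi-likelihood test), for each sex with PSD, restraint and their interaction, for all mice with sex added, and with a mean per sex and treatment for sex differences. P-values were adjusted over all genes tested. A call needed an adjusted p of at most 0.05 and a log2 change of 0.322 or more in either direction. CPM was scaled with TMM over all mice, log2 CPM used a prior count of 2, and levels per kilobase used the union of exons of GENCODE M21. Alternatives were DESeq2 1.42.0, other scalings, filters, dispersions and samples, a replicate block, a neurointermediate lobe score of 6 genes and leaving out each mouse. The scripts were tested on simulated data. No samples of a group agreed within sampling noise (chi-square divided by its degrees of freedom was 7.48 or more in all 37 pairs). Depth limited Egr4 most. The members and lists were chosen with earlier results of these data known. Genes outside the circuit were named where called in a restraint or PSD + restraint contrast, at most 4 a list by smallest p, and as the 2 genes most like each member. Protein sequences were not used here.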

Additional observations from a re-analysis of the deposited data

How the results depend on the processing

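The 154 member values (7 members, 22 contrasts) were recomputed under 4576 combinations of value and alternative. Of these, 4479 kept their side of the limits, 41 passed the limits newly and 56 lost the call. None that was called changed sign, and 117 of the 4479 changed sign without being called in either fit. With DESeq2 the count of called members was 5 after restraint in females, 1 after PSD in males, 1 after PSD over all mice and 1 for the sex difference in controls. With library size alone it was 2 for restraint within PSD in females and 1 in males. For restraint within PSD in males it was also 1 with at least 10 counts in every mouse, 1 with robust dispersion and 1 with only the groups compared. With the neurointermediate lobe score it was 2 after PSD + restraint in females. Leaving out 1 mouse at a time gave 0 to 2 members after PSD over all mice, 2 to 5 after restraint in females, 2 to 4 for restraint within PSD in females, 3 to 6 after PSD + restraint in males, 0 to 2 for restraint within PSD in males and 0 to 1 for the sex difference in controls. Where 1 restrained male was left, that mouse was assumed to vary like the other groups. The cause of these changes was not tested. The count of all genes called was 398 after PSD + restraint in females (93 to 627 under the other settings), 467 in males (147 to 610), 1033 over all mice (723 to 2064), 98 after restraint in females (54 to 190), 54 in males (4 to 99), 5 after PSD in females (0 to 394), 1 in males (0 to 72) and 127 over all mice (33 to 237).

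The replicate numbers gave no sign of pairs among the mice. Same-numbered mice of different groups had a median correlation of deviations of -0.0179 in females, with 2 of 24 pairs over 0.1. In males it was -0.0692, with 2 of 15. Mice with different numbers had 0.0113 in females (11 of 72) and 0.0502 in males (11 of 38). A shared cage or day was not tested. With the replicate block 3 members were called after PSD + restraint in males, 1 after restraint and 0 for restraint within PSD, and in females Nab2 lost its call for restraint within PSD (log2 fold change 0.70, adjusted p = 0.0715).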
